A study of Drosophila melanogaster with 39 samples.

Results

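The peptidoglycan recognition protein (PGRP) genes encode the sensors with which the fly detects bacterial cell wall, together with enzymes that cleave it. The 10 genes described here, of 17559 in the count table, were taken by gene name: PGRP-SA, PGRP-SD, PGRP-LC, PGRP-LE, PGRP-LA, PGRP-LF, PGRP-LB, PGRP-SB1, PGRP-SC1a and PGRP-SC2. All 10 names and FlyBase identifiers matched the gene annotation. Each library held polyadenylated RNA of 1 fly head. The flies (Drosophila melanogaster) were adult males, and those of all groups had the genotype Cantonized w1118. Each group joined a treatment (naive, or shocked by electric shock) with a class of place preference (High, Mid or Low). There were 9 libraries of shocked Low, 8 of shocked Mid, 6 of shocked High, 7 of naive High and 7 of naive Mid flies, and no naive Low group. The study's protocol text reads the same for naive and shocked flies, with shocks of 60 V for 5 min, the place preference assay at 1.5 h and freezing at 2.5 h, so treatment was taken from the sample titles. The boundaries of the classes were not given in the sources used here, and whether naive flies met the apparatus without current was not stated.

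Peptidoglycan of most Gram-positive bacteria is sensed in the haemolymph by secreted PGRPs that start a protease cascade leading to the Toll receptor. Peptidoglycan of Gram-negative bacteria and bacilli is sensed by membrane-bound and intracellular PGRPs that act through the Imd adaptor and the NF-kappaB factor Relish on antimicrobial peptide genes. Catalytic PGRPs are amidases that cut peptidoglycan and so limit the Imd response, and the fat body, which lines the head capsule as well as the abdomen, is a major source of the secreted members.

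Total counts ranged from 5.01 to 11.317 megacounts per library, with a median of 7.65 megacounts. Markers of the labelled tissue were present: all 5 photoreceptor and all 8 pan-neuronal genes passed the expression filter, with summed levels of 58039 to 85866 and 3384 to 6267 counts per 1000000 (CPM). Head fat body was represented by 6 of 7 markers (summed 1014 to 10631 CPM), haemocytes by 8 of 8 (293 to 659 CPM) and gut by only 2 of 10 (7.04 to 36.5 CPM), the trypsin and Jonah protease genes of the gut lying at or near 0. The sums hold all listed markers, tested or not. Glial (6 of 6 tested, 1476 to 2133 CPM), muscle (6 of 6, 2640 to 6045 CPM) and antennal markers (5 of 5, 1019 to 3620 CPM) and both male dosage compensation RNAs (1052 to 2363 CPM) were present as well. In single heads, fewer cells of a type and less RNA per cell cannot be told apart. All labels give 1 batch date, so no batch could be separated. The libraries are separate flies, and p-values measure the spread between flies.

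No PGRP gene passed the test for a difference between the 5 groups or in any of 8 contrasts between them, while 4 of the 9 measurable genes varied more between heads of the same group than at least 90.5% of the tested genes did. Tests were edgeR quasi-likelihood F tests fitted to all 10272 genes that passed the expression filter, with Benjamini-Hochberg adjustment and a threshold of 0.05. In the test over all 5 groups 0 of 9 PGRP genes were called, where 0.107% of all genes were, and 1, PGRP-LC, had an unadjusted p under 0.05, as did 12.2% of all genes. For shock with High and Mid weighted equally 0 of 9 were called (background 0.00974%), and 0 had an unadjusted p under 0.05 (6.3% of all genes). Within High the effect of shock gave 0 of 9 called (background 0%) and 0 at an unadjusted p under 0.05 (5.66% of all genes). Within Mid it gave 0 of 9 called (background 0.0195%) and 1 at an unadjusted p under 0.05 (13.1% of all genes). The interaction of shock and class gave 0 of 9 called (background 0%) and 1 at an unadjusted p under 0.05 (12.3% of all genes). Naive High against naive Mid gave 0 of 9 called (background 0%) and 0 at an unadjusted p under 0.05 (3.09% of all genes). Among shocked flies, Low against High gave 0 of 9 called (background 0%), with 1 at an unadjusted p under 0.05 (4.4% of all genes). Low against Mid gave 0 of 9 (background 0.0195%), with 1 at an unadjusted p under 0.05 (14% of all genes). High against Mid gave 0 of 9 (background 0.0681%), with 2 (17.5% of all genes). DESeq2 and limma-voom called 0 of 9 in every comparison as well, DESeq2 giving no adjusted p for PGRP-SA in shocked High against shocked Mid. With shares this small among all genes, a count of 0 among 9 genes does not set the PGRP genes apart from the rest.

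**Figure D1:**
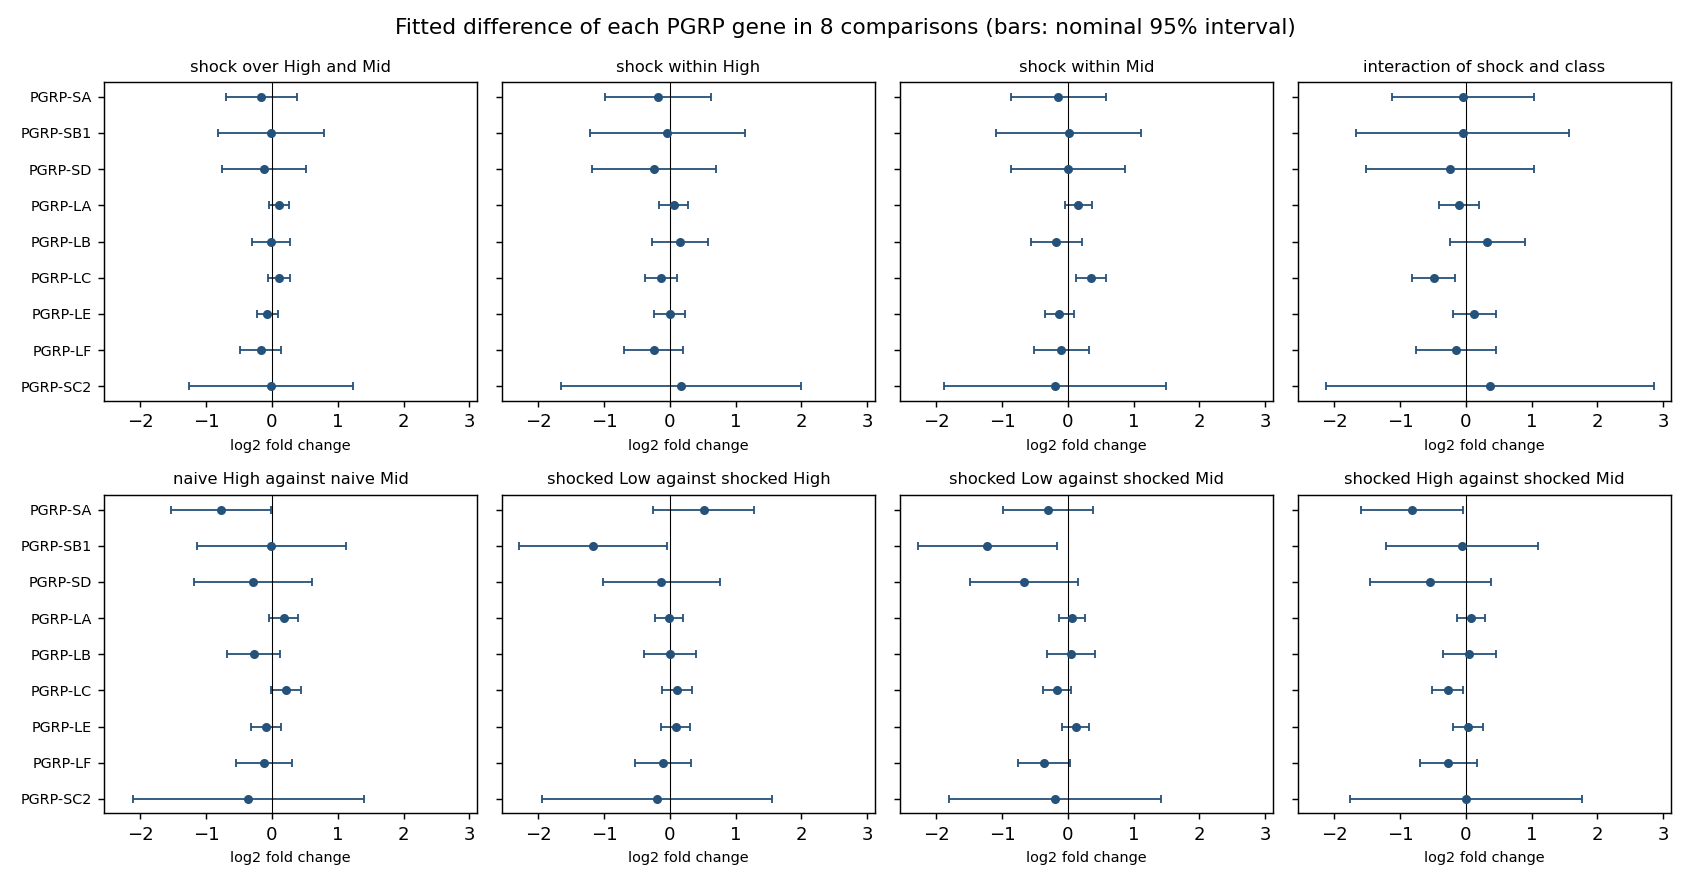
Fitted log2 fold changes (x axis) of the 9 tested PGRP genes (rows) in the 8 contrasts (panels), as points with nominal 95% intervals that are not adjusted for the number of genes. Most intervals include 0, and they are narrow for PGRP-LA, PGRP-LE and PGRP-LC and wide for PGRP-SB1, PGRP-SD, PGRP-SA and PGRP-SC2.

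In the authors' deposited table of pairwise DESeq2 comparisons, 9 of the 10 genes were listed in 10 comparisons. Of their 90 adjusted p-values, 2 were under 0.05. They fell in the 2 comparisons with the most genes called. Of 15947 genes, 525 were under 0.05 in shocked High against shocked Mid and 283 in naive Mid against shocked Mid. PGRP-SA in shocked High against shocked Mid had a q-value of 0.012 and a log2 fold change of 0.82 in the authors' deposited table, where the sign is the later group minus the earlier, so the level was higher in Mid. PGRP-LC in naive Mid against shocked Mid had a q-value of 0.0374 and a log2 fold change of 0.34 in the authors' deposited table, higher in shocked Mid. The same directions were found in the counts, as given below for each gene, but without passing the edgeR test.

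Counts were divided by exon length only to compare levels between genes. Per kilobase, PGRP-SB1 was the most abundant (119 CPM per kb over all 37 libraries), followed by PGRP-SD (71.6), PGRP-LA (26.2), PGRP-SA (17.1), PGRP-LC (14.9), PGRP-LB (9.88), PGRP-LF (9.19), PGRP-LE (8.42) and PGRP-SC2 (2.88). PGRP-SC1a had 0 counts in all 37 libraries. For that gene a count of 0 allows up to 0.599 CPM in the shallowest library and 0.265 CPM in the deepest, taking 3 counts as the limit and covering counting error only. Of the 3 family members outside the set, PGRP-SB2 averaged 0.141 CPM, PGRP-SC1b 0.0169 CPM and PGRP-LD 0.229 CPM. The value of PGRP-LD is uncertain, because 3563 of its 3957 exon bases are shared with Pmi on the same strand and 1323 with Cralbp on the opposite strand. PGRP-SC1a and PGRP-SC1b are near-identical copies, and the authors removed reads with a mapping quality below 8, so reads shared between the copies may have been dropped and the values of both are uncertain.

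**Figure D2:**
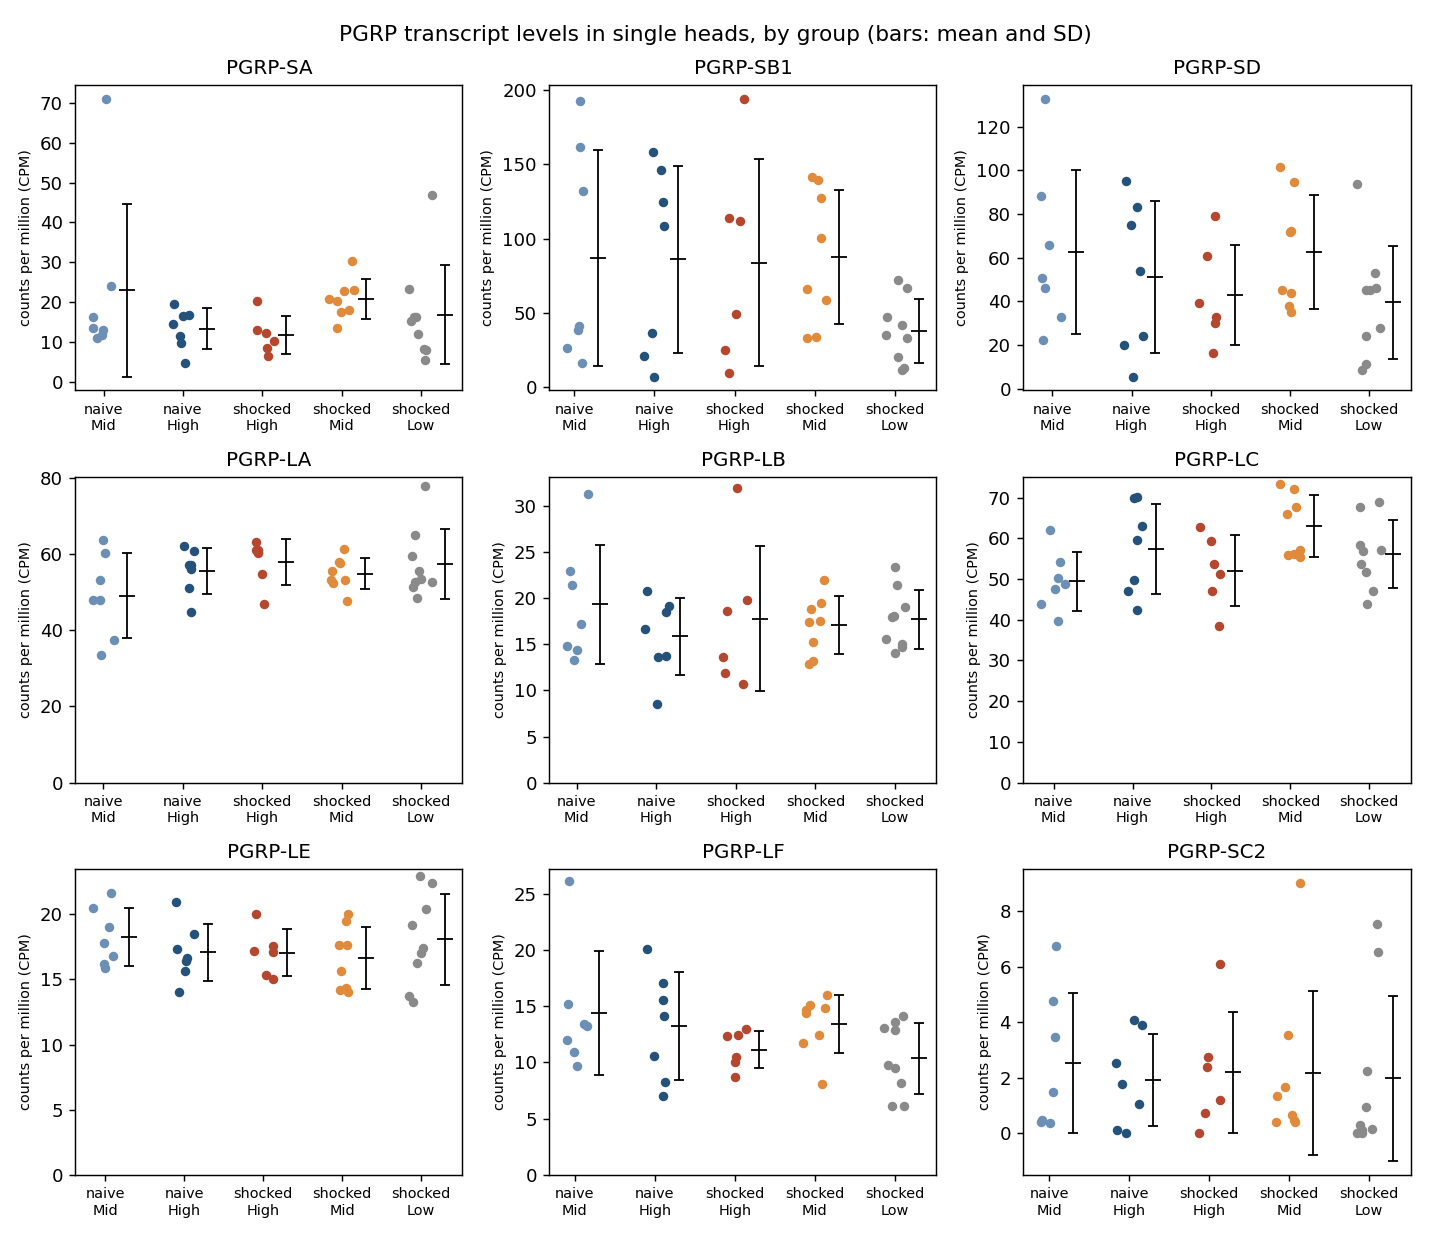
Level of each tested PGRP gene (y axis, CPM, linear) in each library (points) by group (x axis), with the group mean and SD beside the points. The 5 groups overlap for every gene, and single high heads stand out for PGRP-SA in naive Mid (71.0 CPM) and shocked Low (46.9 CPM).

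The order of the group means differed from gene to gene. For each of the 9 genes, no step between neighbouring groups in that order was larger than the larger of their SDs, and 0 of the 10 pairs of groups were free of overlap. Over all 10272 tested genes, 0.163% of such pairs were free of overlap, so a count of 0 does not set these genes apart. PGRP-SB1 and PGRP-SD shared an order (from lowest to highest shocked Low, shocked High, naive High, naive Mid, shocked Mid), and PGRP-LC and PGRP-SB1 were likewise highest in shocked Mid.

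PGRP-SA, a secreted sensor of Lys-type peptidoglycan that acts upstream of Toll, lies on chromosome X (chrX:11561643-11562779 in dm6, plus strand). Its levels ran from 10.9 through a median of 13.6 to 71.0 CPM in naive Mid, and from 4.67 through 14.4 to 19.6 CPM in naive High. In shocked High they ran from 6.38 through 11.2 to 20.2 CPM, in shocked Mid from 13.4 through 20.6 to 30.2 CPM, and in shocked Low from 5.58 through 15.2 to 46.9 CPM. Most heads of shocked Mid were above most heads of shocked High, but the ranges overlapped. Group means were 23.0 CPM ± 21.7 (SD, n = 7) in naive Mid, 20.8 ± 4.94 (n = 8) in shocked Mid, 16.9 ± 12.5 (n = 9) in shocked Low, 13.3 ± 5.07 (n = 7) in naive High and 11.8 ± 4.79 (n = 6) in shocked High. The naive Mid mean rests on 1 head: without naive Mid library 4 it was 14.95 CPM ± 4.83 (SD, n = 6), below shocked Mid. Shocked High against shocked Mid gave a log2 fold change of -0.82 (SE 0.40), with an edgeR adjusted p of 0.276. Marker medians of several tissues lay away from 0 between the same groups, though only 1 marker, Lsp2, passed the test. There all 6 tested fat body markers had a negative log2 fold change with a median of -0.85, against -0.01 for all genes, and Lsp2, a larval serum protein and fat body marker, fell by 4.74 on the log2 scale (SE 0.94, edgeR adjusted p = 0.0245). All 5 antennal markers also had a negative log2 fold change (median -1.23, smallest edgeR adjusted p 0.0791). The 2 tested gut markers had a median of -0.76, with 1 of them positive. A positive log2 fold change was found for 7 of 8 pan-neuronal markers (median 0.17). The part of tissue composition in the PGRP-SA difference was not tested.

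PGRP-SD is a secreted PGRP without amidase activity, first described as a partner of PGRP-SA in Toll activation and later also placed upstream of Imd. It lies at chr3L:7651180-7651900, plus strand, as a single exon of 721 bases. Its levels ran from 22.2 through 50.7 to 133 CPM in naive Mid, from 5.495 through 53.7 to 95.2 CPM in naive High, and from 16.5 through 35.9 to 79.3 CPM in shocked High. In shocked Mid they ran from 35.2 through 58.3 to 102 CPM, and in shocked Low from 8.70 through 45.0 to 93.7 CPM. The groups overlapped over most of their ranges, the span within naive High alone being 17.3-fold. Group means lay between 39.4 CPM ± 25.8 (SD, n = 9) in shocked Low and 62.8 CPM ± 26.1 (SD, n = 8) in shocked Mid. All 8 fitted contrasts lay between -0.67 and 0.00 on the log2 scale. Their nominal 95% intervals reached from -1.52 to 1.03, so differences of these sizes could not be told from 0. The authors' strand setting was not given in the sources used here, and 35 exon bases of PGRP-SD are shared with the opposite-strand gene CG7492.

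PGRP-LC, the principal membrane receptor of the Imd pathway, lies at chr3L:9338810-9348336 on the plus strand. PGRP-LA lies 473 bases upstream of it and PGRP-LF 1272 bases downstream, all 3 on the same strand. PGRP-LC ran from 39.6 through 48.8 to 62.1 CPM in naive Mid and from 55.3 through 61.6 to 73.3 CPM in shocked Mid. Most shocked Mid heads were above most naive Mid heads, with an overlap between 55.3 and 62.1 CPM. In naive High the range was 42.5 through 59.5 to 70.1 CPM, in shocked High 38.5 through 52.4 to 62.7 CPM, and in shocked Low 43.7 through 56.9 to 68.9 CPM. Shocked and naive High differed in the opposite direction to Mid, with broad overlap. Group means were 62.9 CPM ± 7.63 (SD, n = 8) in shocked Mid, 57.4 ± 11.1 (n = 7) in naive High, 56.1 ± 8.37 (n = 9) in shocked Low, 52.1 ± 8.70 (n = 6) in shocked High and 49.4 ± 7.25 (n = 7) in naive Mid.

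Within Mid, the log2 fold change of PGRP-LC with shock was 0.35 (SE 0.11), with an unadjusted p of 0.00436 and an edgeR adjusted p of 0.209. The interaction of shock and class was -0.49 (SE 0.17) on the log2 scale, with an edgeR adjusted p of 0.291. Shocked High against shocked Mid gave -0.27 (SE 0.12), with an edgeR adjusted p of 0.215. PGRP-LC had the smallest unadjusted p of the family in these 3 contrasts and over the 5 groups, where the edgeR adjusted p was 0.397. None passed over all genes. The contrasts share the shocked Mid group or the naive Mid group and are not independent of each other. Within Mid 5 of 6 fat body markers had a positive log2 fold change with shock (median 0.45, against 0.01 for all genes), as did 5 of 5 antennal markers (median 0.60) and the 2 tested gut markers (median 0.99). All 8 pan-neuronal markers had a negative one (median -0.18), and 0 of these markers passed the test. The part of tissue composition in the PGRP-LC values was not tested.

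PGRP-LE, which senses peptidoglycan fragments inside cells and in the haemolymph, lies at chrX:15801153-15803880 on the minus strand. It was the steadiest gene of the family. All 37 heads lay between 13.2 and 23.0 CPM, with group means from 16.6 CPM ± 2.40 (SD, n = 8) in shocked Mid to 18.3 CPM ± 2.20 (SD, n = 7) in naive Mid. The 8 fitted contrasts lay between -0.13 and 0.13 on the log2 scale, and their nominal 95% intervals reached from -0.35 to 0.45. A change beyond that range is outside the intervals. The ends of the range come from different contrasts, and single intervals were narrower, such as -0.23 to 0.09 for shock with High and Mid weighted equally. All 8 intervals included 0.

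PGRP-LA, a membrane-bound member that does not bind peptidoglycan and promotes Imd signalling in the airway, lies at chr3L:9334332-9338336 on the plus strand. Its 37 heads lay between 33.4 and 77.9 CPM. The lowest group mean was 49.1 CPM ± 11.1 (SD, n = 7) in naive Mid and the highest 57.8 CPM ± 6.03 (SD, n = 6) in shocked High, and the fitted contrasts lay between -0.10 and 0.18 on the log2 scale, with nominal 95% intervals from -0.41 to 0.39. PGRP-LF, a membrane protein that restrains PGRP-LC, lies at chr3L:9349609-9351489 on the plus strand. Its heads lay between 6.14 and 26.2 CPM, and group means ran from 10.4 CPM ± 3.16 (SD, n = 9) in shocked Low to 14.4 CPM ± 5.51 (SD, n = 7) in naive Mid. Without the highest head, naive Mid library 4, the naive Mid mean was 12.4 CPM ± 1.96 (SD, n = 6), below shocked Mid and naive High. PGRP-LF values are uncertain, because 602 of its 1355 exon bases are shared with UGP on the opposite strand. UGP averaged 167 CPM, and across 37 libraries its log2 level had r = 0.62 and rho = 0.67 with PGRP-LF, given as a description without a test.

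PGRP-LB, a secreted amidase that lowers Imd activity by degrading peptidoglycan, lies at chr3R:11452849-11460552 on the minus strand. Its heads lay between 8.48 and 32.0 CPM. Group means ran from 15.9 CPM ± 4.22 (SD, n = 7) in naive High to 19.3 CPM ± 6.44 (SD, n = 7) in naive Mid, and the nominal 95% intervals of the fitted contrasts from -0.68 to 0.90 on the log2 scale.

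PGRP-SB1 is an amidase known as a strongly infection-induced gene and lies at chr3L:16727299-16727989 on the minus strand, 10 bases from PGRP-SB2. It ran from 16.05 through 40.7 to 193 CPM in naive Mid, from 6.87 through 108 to 159 CPM in naive High, and from 9.30 through 80.3 to 194 CPM in shocked High. In shocked Mid it ran from 33.2 through 83.0 to 141 CPM, and in shocked Low from 11.2 through 34.8 to 71.7 CPM. Shocked Low lacked the high heads of the other 4 groups, each of which reached at least 141 CPM, but its range overlapped all of theirs. Group means were 87.5 CPM ± 45.5 (SD, n = 8) in shocked Mid, 86.8 ± 73.0 (n = 7) in naive Mid, 85.9 ± 63.1 (n = 7) in naive High, 83.8 ± 69.6 (n = 6) in shocked High and 37.7 ± 21.8 (n = 9) in shocked Low. The shocked Low mean lay below the shocked Mid mean by more than the SD of either group, and below the other 3 by less than their SDs.

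Shocked Low against shocked Mid gave a log2 fold change of -1.22 for PGRP-SB1 (SE 0.54), with an edgeR adjusted p of 0.286. Shocked Low against shocked High gave -1.16 (SE 0.57), with an unadjusted p of 0.0496 and an edgeR adjusted p of 0.998, and it was -0.74 without shocked High library 4 and -0.63 by limma-voom with quality weights. The Imd-dependent antimicrobial peptide genes had the same sign. In Low against High all 10 tested had a negative log2 fold change, with a median of -2.72 against 0.01 for all genes. All 10 had an unadjusted p under 0.05, as did 4.4% of all genes, but 0 of 10 passed (smallest edgeR adjusted p = 0.998). In Low against Mid all 10 were negative as well, with a median of -1.52. There 0 of 10 had an unadjusted p under 0.05 (14% of all genes), and 0 of 10 passed. In that contrast all 6 fat body markers (median -0.66, smallest edgeR adjusted p 0.0944) and all 5 antennal markers (median -0.61, smallest 0.261) were also negative. Their part in the PGRP-SB1 values was not tested.

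PGRP-SC2, an amidase best known from the gut, lies on chromosome 2R (chr2R:8716950-8717695, plus strand), 6629 bases from PGRP-SC1a. It was scarce, with 0 to 78 counts per library and no count in 4 of 37. Levels ran from 0.386 through 1.48 to 6.74 CPM in naive Mid, from 0 through 1.77 to 4.06 CPM in naive High, and from 0 through 1.80 to 6.10 CPM in shocked High. In shocked Mid they ran from 0.403 through 0.996 to 8.998 CPM, and in shocked Low from 0 through 0.286 to 7.54 CPM. Every group held heads near 0 and heads of several CPM. Group means lay between 1.92 CPM ± 1.66 (SD, n = 7) in naive High and 2.53 CPM ± 2.52 (SD, n = 7) in naive Mid. The shocked Mid mean of 2.18 CPM rests on 1 head and was 1.21 CPM without shocked Mid library 2. The intervals of the contrasts (-2.12 to 2.85 on the log2 scale) left several-fold differences undetectable.

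The genes of the family differed in how much they varied between heads. The SD of log2 CPM within groups was 1.64 for PGRP-SC2, 1.31 for PGRP-SB1, 1.01 for PGRP-SD and 0.73 for PGRP-SA, compared with a median of 0.25 over all tested genes. The share of tested genes with a smaller SD was 99.6%, 99.3%, 98% and 90.5%, respectively. PGRP-LF (0.42) and PGRP-LB (0.39) were above 75.3% and 73% of genes. PGRP-LC (0.23), PGRP-LA (0.21) and PGRP-LE (0.21) were below the median, with 44.1%, 38.3% and 37.9% of genes less variable. PGRP-SC2 is scarce, so counting error adds to its spread, and these percentages are not matched on level. No gene fell into separate groups of heads, the largest gap between neighbouring heads being 0.64 on the log2 scale.

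**Figure D3:**
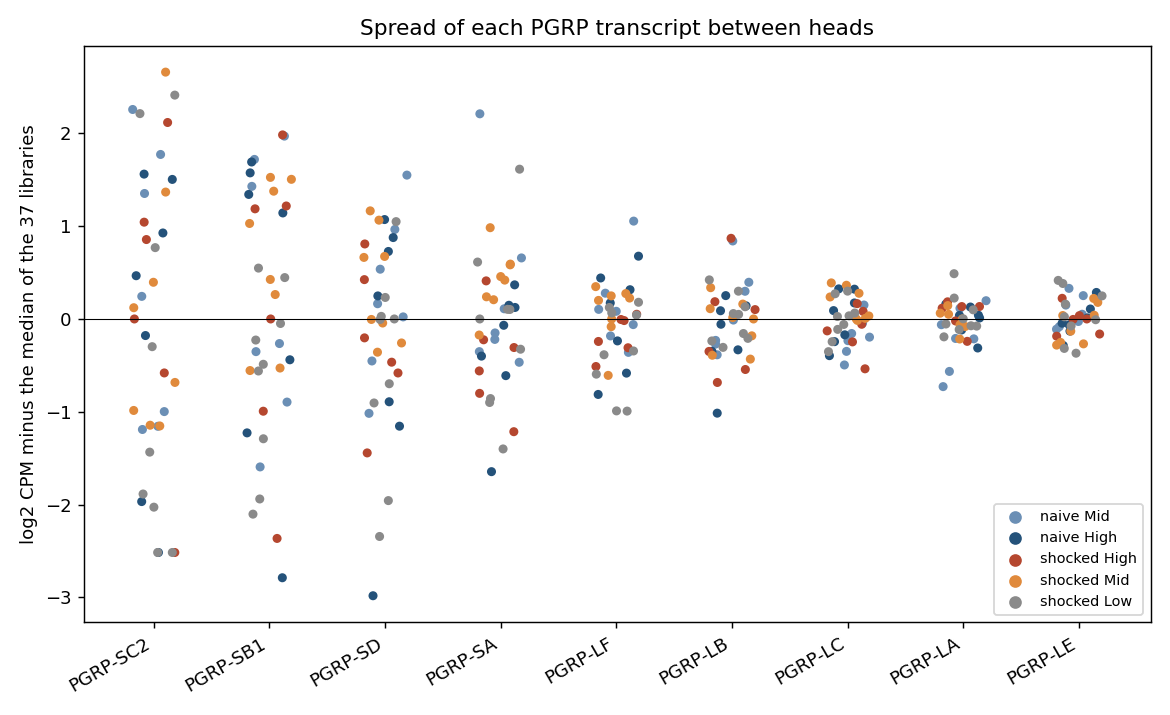
Deviation of each library from the median of the 37 libraries (y axis, log2 CPM) for each tested PGRP gene (x axis), coloured by group and ordered by spread. The points span 5.18 log2 units for PGRP-SC2 and 0.78 for PGRP-LE, and all 5 groups are mixed along each column.

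The variable genes were high and low in the same heads. Of 36 pairs of PGRP genes, 11 had both a Pearson and a Spearman correlation of log2 CPM with an adjusted p under 0.05 (permutation tests with 100000 resamples, adjusted over 72 tests), and all 11 were positive. The tightest pair was PGRP-SB1 with PGRP-SD (r = 0.84, rho = 0.81, both with a permutation p of 1e-05, the smallest possible, and an adjusted p of 6e-05), with r = 0.79 after leaving out the 2 heads farthest from the median of PGRP-SB1. PGRP-SB1 with PGRP-SC2 had r = 0.80 and rho = 0.80 (permutation p 1e-05, adjusted 6e-05), and r = 0.76 without the 2 heads. PGRP-SA with PGRP-SD had r = 0.73 and rho = 0.69 (permutation p 1e-05, adjusted 6e-05), and r = 0.65 without 2 heads. The 4 variable genes were thus all correlated with one another, the weakest pair being PGRP-SA with PGRP-SC2 (r = 0.56, rho = 0.55, adjusted permutation p 0.00106 and 0.00202).

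PGRP-LF was correlated with PGRP-SD (r = 0.71), PGRP-SA (0.67) and PGRP-SB1 (0.65). Each of these had an adjusted permutation p of 0.00131 or less on both measures. PGRP-LC, the receptor, was correlated with PGRP-SD (r = 0.55, rho = 0.56) and more loosely with PGRP-SA (r = 0.45, rho = 0.53, adjusted permutation p 0.0171 and 0.00281). The last pair rests in part on naive High library 7, without which r was 0.39 with an adjusted permutation p of 0.0518. PGRP-LE had r between -0.28 and 0.00 with the other 8 genes, none passing. PGRP-LA and PGRP-LB had no pair that passed on both measures, and the neighbours PGRP-LA and PGRP-LC had r = 0.33 (adjusted permutation p 0.0906).

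Within-group deviations, which remove group means, kept all 11 pairs, with 15 passing in all. At the low end, naive High library 7 ranked lowest of 37 for PGRP-SA, PGRP-SB1 and PGRP-SD and had 0 counts of PGRP-SC2. At the high end, naive Mid library 4 ranked highest for PGRP-SA, PGRP-SD and PGRP-LF. Without naive High library 7, 10 of the 11 pairs remained, and without naive Mid library 4 all 11 did.

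**Figure D4:**
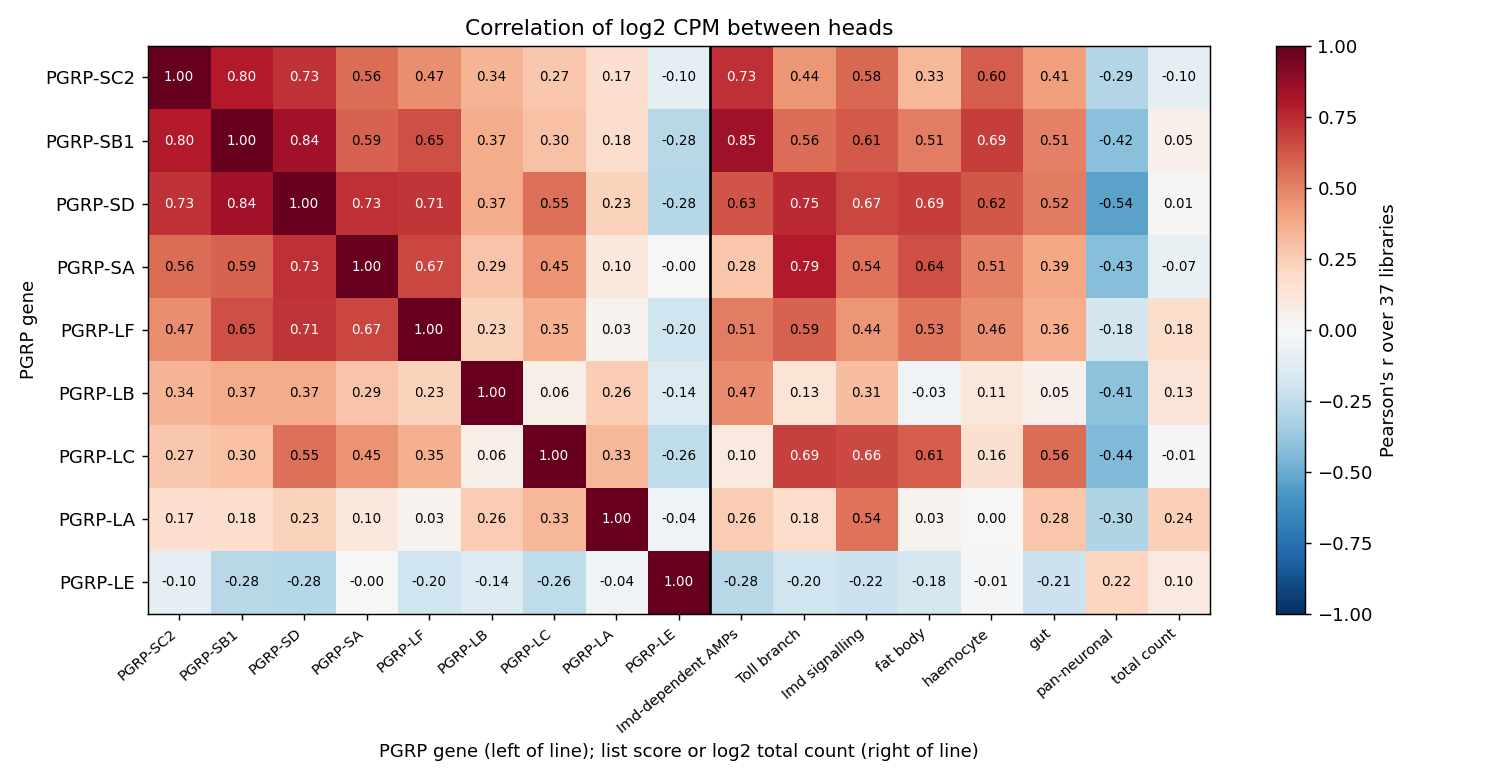
Pearson correlation over 37 libraries (colour and printed value) of each tested PGRP gene (rows) with the other PGRP genes (left of the line) and with list scores and total count (right of the line). PGRP-SC2, PGRP-SB1, PGRP-SD and PGRP-SA form a block of values from 0.56 to 0.84, and PGRP-LE has no value above 0.22 with any other gene or score.

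The PGRP genes were also compared with scores of related gene lists. Scores were the mean log2 CPM of a list's tested genes, and this relation was added after the data had been seen, with 8 scores and 9 PGRP genes adjusted over 144 tests. The Imd-dependent antimicrobial peptides (10 tested genes, among them the diptericins, attacins and cecropins) varied widely. The summed level of the 11 listed genes, the untested AttD included, was 5.495 CPM in the lowest head and 1104 CPM in the highest. PGRP-SB1 followed the score of the 10 tested genes at r = 0.85 and rho = 0.87 (permutation p 1e-05, adjusted 0.00012). The r was 0.84 without the 2 heads farthest from the median of the score. In naive Mid no head had a score between -0.24 and 3.09, and in naive High none between -0.13 and 3.68. In both groups the heads above the empty range were also those with the higher PGRP-SB1. Of 10262 genes outside the list, 4 had a larger r. PGRP-SC2 had r = 0.73 and rho = 0.72 (6 genes larger), PGRP-SD 0.63 and 0.65 (13 larger), and PGRP-LF 0.51 and 0.50 (39 larger), all passing. PGRP-LB had r = 0.47 and rho = 0.47 (adjusted permutation p 0.00807), but 0.34 with an adjusted permutation p of 0.0871 without 2 heads. PGRP-SA (r = 0.28, adjusted permutation p 0.148) and PGRP-LC (r = 0.10, adjusted permutation p 0.662) did not pass. The differences between these correlations were not tested.

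The Toll branch around PGRP-SA (17 tested genes, from the partner GNBP1 through the proteases to dorsal and Dif) was followed by PGRP-SA at r = 0.79 and rho = 0.83, by PGRP-SD at 0.75 and 0.64, and by PGRP-LC at 0.69 and 0.68, each with an adjusted permutation p of 0.00025 or less. PGRP-LF (r = 0.59), PGRP-SB1 (0.56) and PGRP-SC2 (0.44) also passed with the Toll branch score on both measures. Many genes had such correlations: 293 of 10255 outside the list had a larger r than PGRP-SA, and 606 a larger r than PGRP-LC. The fat body score was correlated with PGRP-SD (r = 0.69), PGRP-SA (0.64) and PGRP-LC (0.61). Their adjusted permutation p was 0.00012 to 0.000443, with 531, 637 and 749 of 10266 genes higher. PGRP-LF (r = 0.53) and PGRP-SB1 (0.51) also passed with the fat body score on both measures. The fat body and antimicrobial peptide scores themselves had r = 0.15 and rho = 0.18, given without a test. The haemocyte score had r = 0.69 with PGRP-SB1, 0.62 with PGRP-SD and 0.60 with PGRP-SC2. Each of these had an adjusted permutation p of 0.000514 or less on both measures. PGRP-SA (r = 0.51) passed with the haemocyte score as well. The gut score rests on 2 genes, Mal-A1 and Amy-p. It passed on both measures with PGRP-LC (r = 0.56, 136 of 10270 genes higher), PGRP-SD (0.52), PGRP-SC2 (0.41) and PGRP-SA (0.39). PGRP-SD, PGRP-SC2 and PGRP-SA no longer passed without the 2 heads farthest from the median of the gut score. The pan-neuronal score was negatively correlated, on both measures, with 5 of the 9 genes. They were PGRP-SD (r = -0.54), PGRP-LC (-0.44), PGRP-SA (-0.43), PGRP-SB1 (-0.42) and PGRP-LB (-0.41). Such values were common among the 10264 genes outside the list. Of these, 4.75% had a smaller r than PGRP-SD, 10.3% than PGRP-LC and 12.9% than PGRP-LB. Total count had r between -0.10 and 0.24 with all 9 genes, none passing. The part of tissue composition in these relations was not tested.

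**Figure D5:**
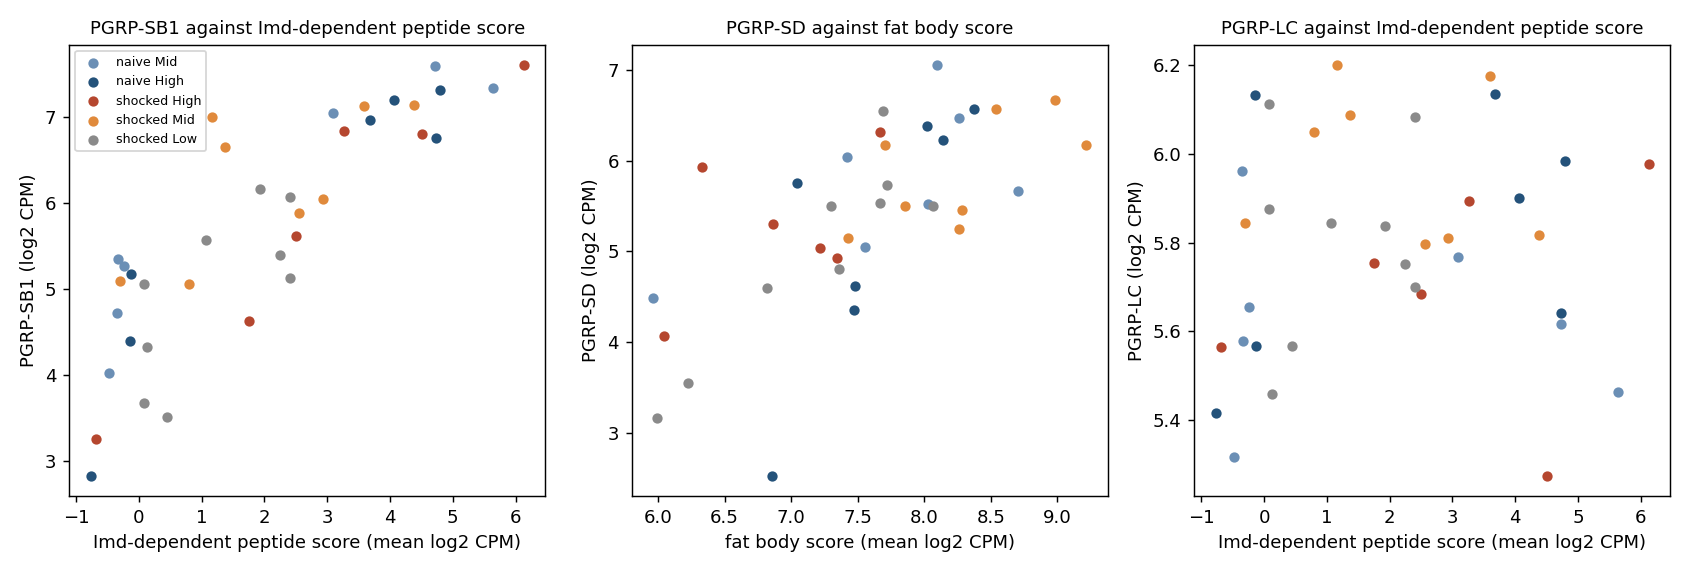
Each library (points, coloured by group) as PGRP-SB1 against the Imd-dependent peptide score, PGRP-SD against the fat body score and PGRP-LC against the Imd-dependent peptide score, all on log2 CPM scales. The first relation is tight (r = 0.85), the second looser (r = 0.69), and the third shows no trend (r = 0.10).

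The 21 Imd signalling genes, all tested, moved little between heads, with a score SD of 0.08 over 37 libraries. Its correlation passed for 7 of the 9 PGRP genes on both measures, led by PGRP-SD (r = 0.67, rho = 0.54) and PGRP-LC (r = 0.66, rho = 0.63). PGRP-LA was among them (r = 0.54, rho = 0.58). Of 10251 genes outside the list, 11 had a larger r than PGRP-SD and 13 than PGRP-LC. A larger r than PGRP-LA was found in 264, and than PGRP-LF, the lowest of the 7, in 754. By group, 0 of 21 Imd signalling genes, 0 of 17 Toll branch genes, 0 of 10 antimicrobial peptide genes and 0 of 3 tested lysis enzymes passed the edgeR test in any of the 9 comparisons. In shocked High against shocked Mid, 15 of 17 Toll branch genes had a negative log2 fold change (median -0.19, 7 with an unadjusted p under 0.05 where 17.5% of all genes had one, smallest edgeR adjusted p 0.0791), beside the negative fat body and antennal medians of -0.85 and -1.23. In the same contrast all 10 antimicrobial peptide genes had a positive one (median 1.08, 1 with an unadjusted p under 0.05). PGRP-SA and PGRP-LC had the sign of the first list and PGRP-SB1 was near 0.

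The genes most like each PGRP gene over the 37 libraries, by Pearson's r of log2 CPM, are named here as a description. Those of PGRP-SB1 were AttA (r = 0.89), DptB (0.89) and AttC (0.89), which encode antimicrobial peptides. Those of PGRP-SC2 were PGRP-SB1 (0.80), AttA (0.79) and AttC (0.78). PGRP-SD was most like Ela (0.89), fat-spondin (0.87) and Ance-5 (0.86), and PGRP-SA most like CG5958 (0.84), Ela (0.84) and vir-1 (0.84). For PGRP-LC they were Scsalpha (0.81), a succinyl-CoA synthetase subunit, CG17292 (0.76) and CG3902 (0.75), and for PGRP-LF Cyt-b5-r (0.74), CG1468 (0.73) and Cyp12c1 (0.72). The likest genes were less close for PGRP-LA (CDase, 0.66), PGRP-LB (CG3313, 0.64) and PGRP-LE (CG13609, 0.59). These are the largest values among all tested genes.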

How the data were processed

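The authors' steps are taken from the series design text. RNA of individual heads was purified on oligo dT beads, adaptors were removed, and STAR aligned the reads to dm6. The authors dropped alignments of mapping quality below 8 and non-primary ones, obtained exon read numbers with HTSeq-count and ran DESeq2. Tool versions and the strand setting were not stated, and the extraction label also says nuclear RNA-seq, which is unresolved. The deposited count table holds raw counts per gene. The authors' deposited comparison table holds a log2 fold change and a q-value (an adjusted p-value) for each pair of groups, per the file headers. Of 39 labelled samples, 37 had a column and 2 of shocked High had none; 2 further columns fitted no sample and stayed unused.

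Genes were filtered with filterByExpr, scaled by TMM and tested in 1 quasi-likelihood model of 5 groups with edgeR 4.0.16 (R 4.3.3), which was tested on simulated data. Among the rows of counts, 1 had no gene name. CPM is counts per 1000000 of a library's size over the filtered genes after TMM scaling, and log2 CPM used a prior count of 2. The limits given for PGRP-SC1a used total counts instead. DESeq2 1.42.0, limma 3.58.1, other scaling, no filter, fewer groups, a replicate block and leaving out each library were alternatives. Correlations used permutation tests (numpy 2.4.6, scipy 1.17.1, pandas 2.3.3, Python 3.11.15), and figures matplotlib 3.10.9. Gene positions follow Ensembl release 115 (dm6 coordinates). All 10 members are described in every comparison, with the 3 likest genes of each. The members and lists were chosen with earlier results of these data known. The lists hold other PGRP genes, Imd signalling, antimicrobial peptides, the Toll branch, lysis enzymes and markers of cell types a head could hold.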

Additional observations from a re-analysis of the deposited data

Results flagged for a closer look

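In 45 tests of a gene in a group, 4 single heads lay further from the rest of their group than Dixon's 95% critical value allows. Chance flags about 1 in 20 such groups, so some flags are to be counted on. PGRP-SA stood at 71.0 CPM in naive Mid library 4, with the next head of the group at 24.05 CPM. The same head held the highest PGRP-LF of naive Mid, 26.2 CPM, with the next at 15.2 CPM, and the highest PGRP-SD of all 37 heads, 133 CPM. PGRP-SA stood at 46.9 CPM in shocked Low library 6, with the next at 23.3 CPM, and without it the group mean was 13.1 CPM ± 5.81 (SD, n = 8). PGRP-SC2 stood at 9.0 CPM in shocked Mid library 2, with the next at 3.52 CPM, and without it the group mean was 1.21 CPM ± 1.13 (SD, n = 7).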

How the results depend on the processing

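The count of PGRP genes called was 0 in all 9 comparisons under DESeq2, limma-voom with quality weights, DESeq2 size factors and no filter on low counts. DESeq2 gave no adjusted p for PGRP-SA in shocked High against shocked Mid, so its count there does not cover that gene. The count was also 0 in the 8 contrasts with only the groups compared, and in each of the 37 fits that left out 1 library. With a replicate block it was 1 in shocked High against shocked Mid, PGRP-LC at -0.36 (SE 0.11, edgeR adjusted p = 0.0452), and 0 elsewhere. Same-numbered libraries had a median correlation of 0.0176 (-0.331 to 0.297), and 7 of 37 correlated best with their own number. The replicate numbers do not follow the library names in every group. Whether same-numbered flies were handled together was not tested. Under the block the genes called in that contrast went from 7 to 748, and the cause was not tested. PGRP-LC in that contrast kept its sign, with adjusted p-values up to 0.269 over the other settings and 0.144 to 0.456 leaving out 1 library. The number of all genes called depended on the setting: over the 5 groups it was 88 with DESeq2, 22 with no filter and 38 with the block, against 11; in shocked High against shocked Mid 310 with DESeq2, 668 with limma-voom, 13 with DESeq2 size factors and 68 with only the groups compared, against 7. Within Mid it was 21, 8, 4, 16 and 11 with DESeq2, limma-voom, no filter, the block and only the groups compared, against 2. For Low against Mid it was 150 with DESeq2, 6 with limma-voom, 7 with no filter and 1 with the block, against 2; for pooled shock 8, 3, 4 and 2 with DESeq2, limma-voom, the block and only the groups compared, against 1. For the interaction it was 3 with DESeq2 and 2 with limma-voom, against 0. Leaving out 1 library moved the High against Mid count between 0 and 586, the latter without shocked High library 3, which had the lowest quality weight (0.387), and the Low against Mid count between 1 and 52, the latter without shocked Low library 3. The sign differed from the main value in 29 of 431 fitted PGRP values under the other settings and in 165 of 2664 leaving out 1 library, all uncalled. PGRP-SB1 in Low against High was -0.63 with limma-voom and -0.76 with the block, against -1.16. Correlated pairs numbered 10 to 15, against 11, over 6 settings; the score correlations, and correlations without naive High library 7, naive Mid library 4 or shocked High library 3, were added after seeing the data. Correlations with scores passed in 26 pairs without the 2 farthest heads, 28 without naive High library 7, 38 without naive Mid library 4 and 39 on within-group deviations, against 36. Without the 2 farthest heads the gut score no longer passed with PGRP-SA (r = 0.25), PGRP-SD (0.38) and PGRP-SC2 (0.27), nor the pan-neuronal score with PGRP-SA (-0.35) and PGRP-SB1 (-0.30). With 6 to 9 heads a group and an SD of 1 or more on the log2 scale, differences under about the size of the intervals given for PGRP-SB1, PGRP-SD and PGRP-SC2 were not detectable.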

Other observations

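Other values of the heads that lay at the ends of the PGRP ranges were not part of any comparison. Naive High library 7, lowest for PGRP-SA, PGRP-SB1 and PGRP-SD, also had the lowest Imd-dependent antimicrobial peptide score of the 37 heads (-0.77) and the highest pan-neuronal score (9.30, against a median of 8.86). Shocked High library 4 had the highest PGRP-SB1 (194 CPM), the highest PGRP-LB (32.0 CPM) and the highest antimicrobial peptide score (6.13, against a median of 1.93), while it ranked 25 of 37 for PGRP-SA. Naive Mid library 4, highest for PGRP-SA and PGRP-SD, ranked 8 of 37 for PGRP-SB1, with a fat body score of 8.10 against a median of 7.67. Shocked Low library 8 had the lowest haemocyte score (2.56, with the next head 1.36 higher), and its PGRP-SC2 count was 0. These heads were picked after their values had been seen.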
